A study of Rattus norvegicus with 14 samples.

Results

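Immediate early genes are switched on by neuronal activity within minutes and without new protein synthesis, and 7 of them were followed here through the rat supraoptic nucleus (SON) after knockdown of Rasd1. They were chosen by their Ensembl IDs: Fos (ENSRNOG00000008015), Fosb (ENSRNOG00000046667), Jun (ENSRNOG00000026293), Junb (ENSRNOG00000042838), Egr1 (ENSRNOG00000019422), Arc (ENSRNOG00000043465) and Nr4a1 (ENSRNOG00000007607). All 7 were found among the 32623 genes of the deposited table, and all 7 passed the filter on low values. The table gives no gene symbols, so the symbols are those paired with the IDs in that list.

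The libraries came from male Sprague Dawley rats of 250 to 300 g, with free access to food and water, whose SON had received an adeno-associated virus by stereotaxic injection. In 7 libraries the virus carried a control microRNA (miCtl) and in 7 a microRNA against Rasd1 (miRasd1), which encodes a Ras-like GTPase; no uninjected group was analysed here, and the series describes the rats as euhydrated. Each library was made from the poly(A) RNA of a single SON, taken with a 1 mm punch from 100 µm sections. The titles number the libraries EH 1, 2, 3, 4, 8, 11 and 12 in both groups, and the 2 libraries of one number are treated as a pair. The sources used here give neither the rats' age, the promoter behind the microRNA, the time from injection to collection nor what an EH number stands for. Whether the punches came from separate rats is not stated either, and the p-values reflect the spread among the punches, which may be technical. Depth was 19968058 to 28345441 reads per library. Levels are normalised reads, that is reads divided by the size factor of the library, and differences are on the scale of log2(normalised reads + 1). The level of Rasd1 and markers of the cell types in the punch were not looked up, since no table at hand pairs the Ensembl IDs with symbols. In such bulk samples a change in the number of cells of a type and a change in RNA per cell cannot be told apart.

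The SON holds magnocellular neurons that release vasopressin and oxytocin, and Fos is a long-standing readout of their osmotic stimulation. Calcium entry and Ras-ERK signalling act on these genes through transcription factors that are already present: CREB, which binds the cyclic AMP response element (CRE), and serum response factor, which binds the CArG box. Most of the 7 encode transcription factors. Fos, Fosb, Jun and Junb proteins pair up as AP-1, Egr1 is a zinc finger factor, Nr4a1 is an orphan nuclear receptor, and Arc is a synaptic protein that acts in glutamate receptor endocytosis.

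The RefSeq promoter table (GRCr8) held a window for 4 of the 7 genes: Fosb, Junb, Egr1 and Nr4a1. The 250 bases before the annotated start were searched on both strands for the full CRE (TGACGTCA), for its half-site TGACG, which the full CRE contains, and for the CArG box. The half-site occurs in 18.2% of all 33469 windows of this length, the full CRE in 1.59% and the CArG box in 1.497%. Nr4a1 is shown with Egr1 and Junb, each of which correlated with it in their within-pair differences, as described further on. Fos and Arc also correlated with Nr4a1 but had no window, and the Fosb window is not shown. Whether the matches bear on these correlations was not tested. Capitals mark the half-sites and CArG boxes, and each sequence is written 5′ to 3′ along the gene, for Egr1 from chr18:26736828-26737077 (plus strand), for Junb from chr19:40080876-40081125 (plus strand) and for Nr4a1 from chr7:134259888-134260137 (plus strand).
Egr1: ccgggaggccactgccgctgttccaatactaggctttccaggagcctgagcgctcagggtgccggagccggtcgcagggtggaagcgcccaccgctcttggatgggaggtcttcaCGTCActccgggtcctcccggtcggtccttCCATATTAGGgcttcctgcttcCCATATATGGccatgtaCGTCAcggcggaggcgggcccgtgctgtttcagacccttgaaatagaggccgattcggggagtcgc
Junb: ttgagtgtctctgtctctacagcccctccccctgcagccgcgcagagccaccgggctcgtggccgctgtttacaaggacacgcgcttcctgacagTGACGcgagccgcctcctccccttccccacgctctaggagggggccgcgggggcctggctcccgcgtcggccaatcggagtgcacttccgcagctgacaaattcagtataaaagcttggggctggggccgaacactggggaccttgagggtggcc
Nr4a1: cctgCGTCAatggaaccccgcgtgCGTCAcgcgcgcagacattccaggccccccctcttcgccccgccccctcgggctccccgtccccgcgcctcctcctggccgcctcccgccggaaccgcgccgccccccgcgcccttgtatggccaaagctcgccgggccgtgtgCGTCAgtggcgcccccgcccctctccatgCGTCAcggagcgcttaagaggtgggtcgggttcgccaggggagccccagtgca
The Egr1 window held 2 CArG boxes, 105 to 96 and 83 to 74 bases before the start, and 2 CRE half-sites, 135 to 131 and 66 to 62 bases before it. Nr4a1 held 4 half-sites and no CArG box, and its window lies inside the annotated gene. Junb held 1 half-site, 155 to 151 bases before the start. In the Fosb window, which also lies inside the annotated gene, the half-site and the CArG box gave 0 matches, and the full CRE was found in none of the 4 windows. These matches are letters in a window, and binding was not measured.

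In a comparison of all miRasd1 with all miCtl libraries, 6 of the 7 genes had a higher mean log2 level in miRasd1, and none passed the test in limma, edgeR or DESeq2. The 7 log2 fold changes had a median of 0.42, against −0.0012 over the 15178 genes tested, a median that division by size factors holds near 0. The comparison without pairs was the main one, and pairing by number was an alternative. With the libraries of one number treated as a pair, Egr1 passed the threshold in limma, with a log2 fold change of 0.54. It was higher in miRasd1 in 7 of 7 pairs, but the call was lost without EH 1, EH 4 or EH 12 and without the filter on low values. Junb, Arc and Nr4a1 were also higher in 7 of 7 pairs but missed the threshold, and Jun had a fold change near 0. The tests are limma on log2 values with Benjamini-Hochberg adjustment over all genes and a threshold of 0.05, without and with the replicate number as a block. Without the block limma called 0.145% of the genes tested and 0 of the 7 (1 of the 7, Arc, at an unadjusted p under 0.05, as were 9.88% of the genes). With it limma called 0.988% of the genes and 1 of the 7. Of all tested genes, 2.44% were higher in miRasd1 in all 7 pairs, as 4 of the 7 were.

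**Figure D1:**
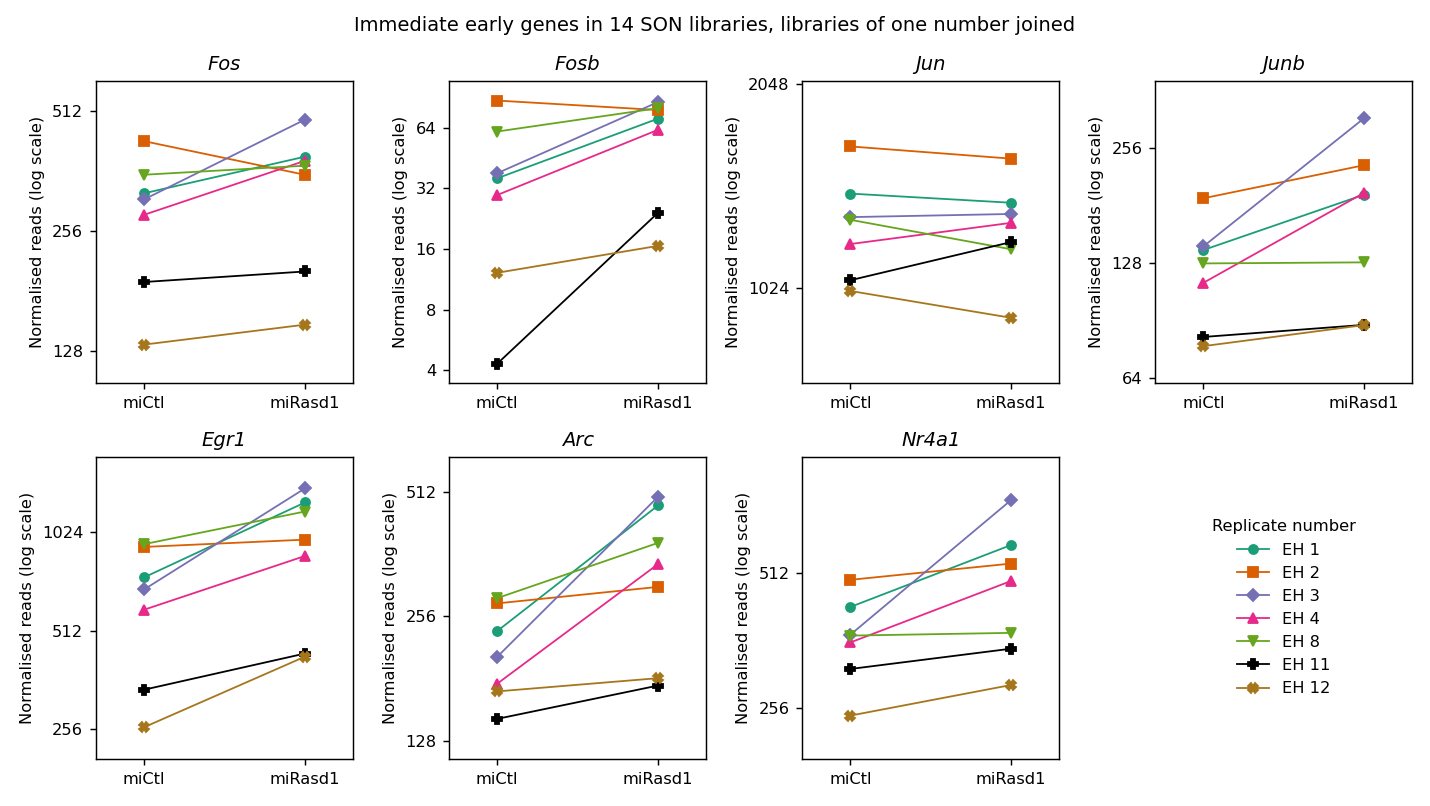
Normalised reads of each gene (log scale, each panel with its own range) in the 7 miCtl and 7 miRasd1 libraries; points are libraries and a line joins the 2 libraries of one EH number. EH 11 and EH 12 lie lowest in most panels, and in Junb, Egr1, Arc and Nr4a1 every line runs upward.

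Egr1 measured 259 normalised reads in the lowest miCtl library, 684 in the median one and 941 in the highest. In miRasd1 the lowest was 426, the median 971 and the highest 1392. The groups overlapped widely, with 4 miRasd1 libraries above every miCtl library and 2 miCtl libraries below every miRasd1 library. The 7 miCtl libraries averaged 640 ± 265 and the 7 miRasd1 libraries 933 ± 385 (SD). Unblocked, the log2 fold change in limma was 0.54 (95% interval −0.13 to 1.22, SE 0.32, adjusted p = 0.611). Within pairs the log2 difference of Egr1 was 0.76 in EH 1, 0.07 in EH 2, 1.02 in EH 3, 0.54 in EH 4, 0.33 in EH 8, 0.37 in EH 11 and 0.71 in EH 12. EH 3 and EH 1 had the largest differences and EH 2 the smallest. With the block the SE was 0.09, the 95% interval 0.35 to 0.74 and the limma adjusted p 0.0275. This call held in edgeR with the block (adjusted p = 0.0281) and in DESeq2 with the block (adjusted p = 2.78e-06). It was lost in limma without EH 1 (adjusted p = 0.0867), EH 4 (0.110) or EH 12 (0.106) and without the filter on low values (0.0763), while the log2 fold change was 0.46 to 0.62 when a pair was left out. When a single library was left out the Egr1 fold change ran from 0.35 (without miCtl EH 12) to 0.71 (without miRasd1 EH 12).

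Arc had the largest ratio of means of the 7, 1.59. Its levels in miCtl ran from 145 through a median of 204 to 283 normalised reads, and in miRasd1 from 174 through 342 to 499. Here 5 of the 7 miRasd1 libraries exceeded every miCtl library, but the miRasd1 libraries EH 11 (174) and EH 12 (181) lay among the lower miCtl values. The 7 miCtl libraries averaged 213 ± 53.9 and the 7 miRasd1 libraries 337 ± 129 (SD), with a two-sided exact permutation p of 0.0490. In limma the log2 fold change was 0.60 (SE 0.23, adjusted p = 0.365) and the block gave SE 0.14 and adjusted p = 0.0656. Arc passed the threshold in DESeq2 with the block (adjusted p = 0.00104) and in limma with the block without EH 2 (0.0481) or EH 8 (0.0483), and in no other setting tried. The within-pair differences fell into a higher set, with 1.006 in EH 1, 1.28 in EH 3 and 0.96 in EH 4, and a lower one, with 0.13 in EH 2, 0.44 in EH 8, 0.27 in EH 11 and 0.11 in EH 12.

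Nr4a1 measured 246 to 495 normalised reads in miCtl (median 372) and 288 to 747 in miRasd1 (median 493). The averages were 370 ± 79.7 and 483 ± 160 (SD, 7 libraries each), and 3 miRasd1 libraries exceeded every miCtl library. In limma its log2 fold change was 0.35 (SE 0.19, adjusted p = 0.561; blocked SE 0.10, adjusted p = 0.115), and DESeq2 with the block gave an adjusted p of 0.0313. The largest within-pair difference was 1.00, in EH 3, and the smallest difference was 0.02, in EH 8.

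Among the AP-1 genes, Junb was the one higher in all pairs. It ran from 77.6 through a median of 128 to 189 normalised reads in miCtl and from 88.1 through 193 to 306 in miRasd1. Junb averaged 124 ± 38.3 and 176 ± 79.9 (SD, 7 libraries each), a log2 fold change in limma of 0.42 (SE 0.27, adjusted p = 0.648; blocked SE 0.12, adjusted p = 0.129). The Junb differences were 1.11 in EH 3, 0.78 in EH 4 and 0.48 in EH 1, and they came down to 0.01 in EH 8. Without miRasd1 EH 3 the Junb fold change was 0.26.

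Fos, a widely used marker of neuronal activation, had the smallest fold change after Jun. Its levels were 133, 308 and 431 normalised reads (lowest, median and highest) in miCtl and 149, 374 and 488 in miRasd1. Fos averaged 288 ± 99.8 and 335 ± 118 (SD, 7 libraries each). In limma the log2 fold change was 0.21 (95% interval −0.36 to 0.77, SE 0.27, adjusted p = 0.875), and the block narrowed the interval to 0.01 to 0.41 (SE 0.09, adjusted p = 0.310). Fos was higher in miRasd1 in 6 of 7 pairs, and in EH 2 it was lower, by a log2 difference of −0.28. Single libraries moved the fold change of Fos: it was 0.04 without miCtl EH 12, 0.13 without miCtl EH 11, 0.10 without miRasd1 EH 3, 0.32 without miCtl EH 2 and 0.39 without miRasd1 EH 12. Without the pair EH 3 it was 0.13.

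Fosb, whose truncated splice form ΔFosB is known to build up with repeated activity, had the fewest reads of the 7 and the largest spread. Its levels were 4.32, 35.9 and 87.2 normalised reads (lowest, median and highest) in miCtl and 16.6, 71.0 and 85.8 in miRasd1. Fosb averaged 38.4 ± 28.4 and 59.7 ± 28.0 (SD, 7 libraries each), and limma gave a log2 fold change of 0.86 (SE 0.53, adjusted p = 0.637; blocked SE 0.23, adjusted p = 0.0980). The largest pair difference of Fosb, 2.25 in EH 11, rests on a miCtl library with 4 reads, for which the exact Poisson 95% interval is 1.09 to 10.2 reads and covers counting error only. Without EH 11 the log2 fold change of Fosb was 0.63, and without its miCtl library alone 0.46. Gene counts do not separate its splice forms.

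Jun, the usual partner of Fos proteins in AP-1, had the narrowest relative range, 1012 to 1658 normalised reads in miCtl (median 1291) and 924 to 1590 in miRasd1 (median 1277). Jun averaged 1273 ± 221 and 1263 ± 204 (SD, 7 libraries each), and it was higher in miRasd1 in 3 of 7 pairs. The log2 fold change was −0.01, with a 95% interval of −0.25 to 0.23 (limma, SE 0.11, adjusted p = 0.993) and of −0.11 to 0.08 with the block (SE 0.04, adjusted p = 0.949). Whether Jun differed from the other 6 in its response was not tested.

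The exact tests of single genes over pairs, 7 in all and not adjusted, gave the smallest p that 7 pairs allow, 0.0156, for Junb, Egr1, Arc and Nr4a1 (two-sided sign-flip permutation). That p follows whenever all 7 differences share a sign, so it restates that these genes were higher in every pair. Of all tested genes, 2.44% were higher in all 7 pairs. Fosb gave 0.0313, Fos 0.125 and Jun 0.797 in the same exact sign-flip permutation test. Between groups of 7 libraries, ignoring pairs, the exact permutation p was 0.178 for Egr1, 0.140 for Nr4a1, 0.191 for Junb, 0.198 for Fosb, 0.519 for Fos and 0.940 for Jun. In the authors' deposited table, an adjusted p under 0.05 is given for 1.12% of the genes that have one and for none of the 7 (an unadjusted p under 0.05 for 1 of the 7, Arc, and for 10% of the genes). The authors' deposited table gives Arc a log2 fold change of 0.66 with an adjusted p of 0.252, and Egr1 one of 0.54 with an adjusted p of 0.664.

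**Figure D2:**
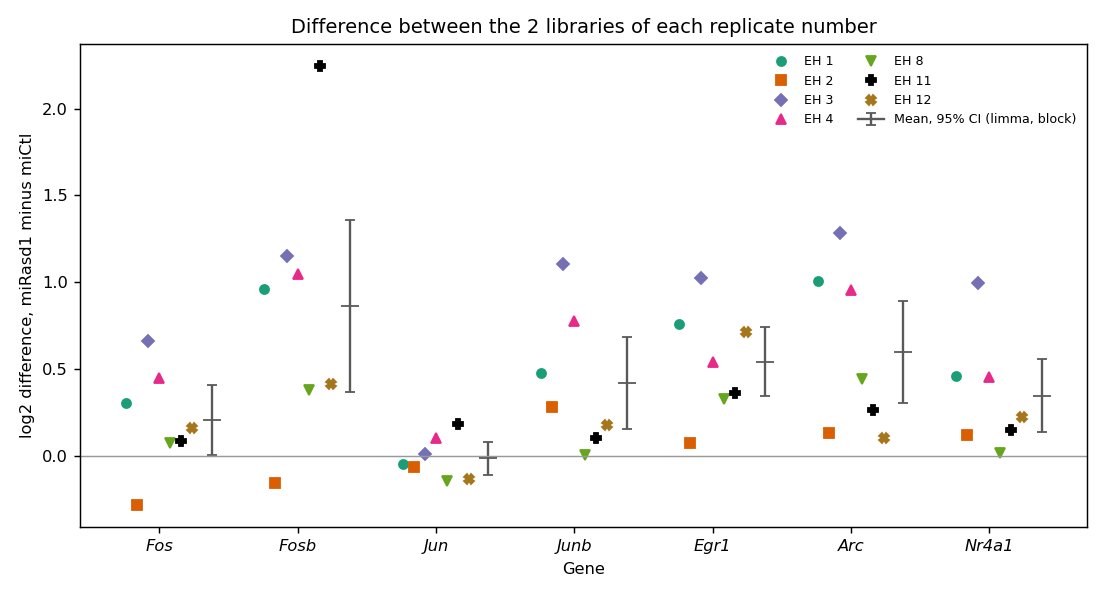
Log2 difference of miRasd1 minus miCtl for each of the 7 EH numbers (points) and each gene, with the mean and 95% interval of limma with the replicate block (bars). The interval of Jun spans 0, and EH 3 has the highest point for Fos, Junb, Egr1, Arc and Nr4a1.

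Pairs differed in how far these genes moved. The median difference of the 7 genes was 1.02 in EH 3, where all 7 were higher in miRasd1 and 1.27% of the tested genes had a difference at least that large. It was 0.54 in EH 4 and 0.48 in EH 1, values that 3.83% and 4.28% of the tested genes reached. In EH 11 and EH 12 the medians were 0.19 and 0.18, which 16.6% and 16.7% of genes reached. The smallest medians were 0.07 in EH 2 and 0.08 in EH 8, where 33.0% and 31.5% of genes lay at or above them. The median over all tested genes was between −0.0059 and 0.0069 in every pair. Division by size factors holds this median near 0, so it is no independent baseline. EH 11, the pair with the most unequal depth (28345441 reads in miRasd1 against 20434789 in miCtl), had the middle of the 7 medians. It also held the largest pair differences of Fosb (2.25) and Jun (0.19). Whether depth bears on the differences was not tested.

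The level of the genes also varied between pairs, whichever virus was given. For each of the 7 genes the lowest pair means were those of EH 11 and EH 12. For Egr1, the libraries of EH 11 held 338 (miCtl) and 436 (miRasd1) normalised reads and those of EH 12 held 259 and 426, whereas the other 10 libraries held 593 to 1392. For Fos the same 4 libraries held 133 to 203 and the other 10 held 282 to 488. The miCtl libraries of EH 11 and EH 12 had 20434789 and 20272715 reads, the fewest of the miCtl libraries. Their miRasd1 libraries had 28345441, the most of the series, and 21568419. What set these punches apart was not tested.

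The replicate number accounted for 55.1% (Arc) to 93.6% (Jun) of the variance of the log2 level over the 14 libraries, against a median of 56.5% over all tested genes. For Fos the share was 90.2%, higher than in 97.9% of the tested genes, and for Egr1 it was 81.2%, higher than in 91.4% of them. The shares of Jun, Fosb, Junb, Nr4a1 and Arc were higher than in 99.1%, 86.8%, 86.1%, 73.8% and 47.5% of them. The group accounted for 29.1% in Arc, 17.4% in Nr4a1, 14.6% in Egr1, 13.6% in Fosb, 13.2% in Junb, 3.51% in Fos and 0.06% in Jun, against a median of 5.15%. The 7 replicate numbers take a larger share than the 2 groups on average even in noise, so each share is to be read against its median. The remainder was smallest in Egr1, 4.24%, against a median of 32.3% over all tested genes. In total spread, the SD of the log2 level was 0.74 for Egr1 and 1.21 for Fosb, larger than in 98.9% and 99.9% of the tested genes, and 0.23 for Jun, larger than in 75.8%.

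**Figure D3:**
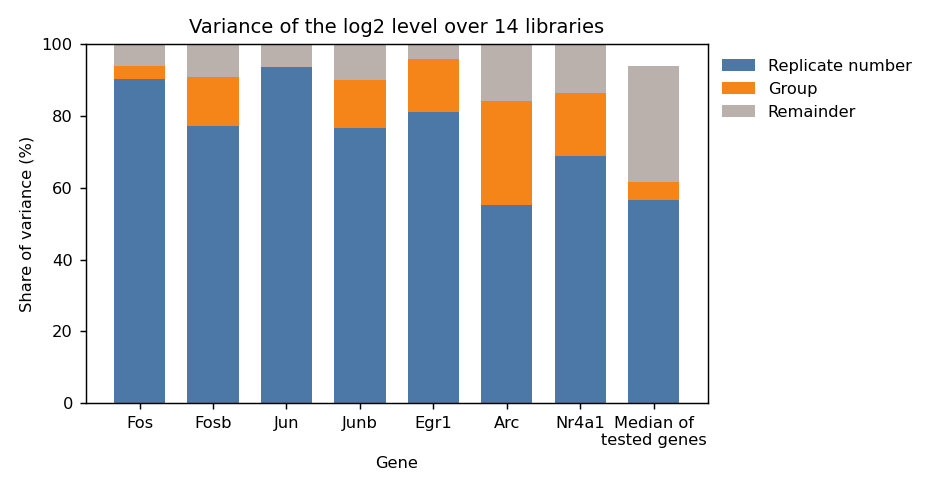
Share of the variance of the log2 level over the 14 libraries (percent) that goes with the replicate number, with the group and with neither, for each gene and as the median of each share over all tested genes (these medians need not add up to 100). The replicate number takes the largest share in each of the 7, from 55.1% in Arc to 93.6% in Jun. Its median over all tested genes is 56.5%. With 7 replicate numbers and 2 groups, it takes the larger share on average even in noise. The group share is largest in Arc.

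Covariation among the genes was measured on the 7 within-pair differences, which carry no difference in level between pairs. Since EH 11 and EH 12 lay apart in level, no correlation over pair means or over libraries of one group is given. All 21 Pearson correlations between members were above 0, with a median of 0.67, against a median of 0.00 over all pairs of tested genes, of which 5.84% reached 0.67. Without EH 3 the median over the 21 was 0.44. With p-values adjusted over the 42 relations computed (21 of differences and 21 of pair means), 9 of the 21 passed the threshold by Pearson's r and 0 by Spearman's rho (exact permutation of pairings; 6 of 21 by rho at an unadjusted p under 0.05, smallest adjusted p 0.0567). Adjusted over the 21 relations of differences alone, 8 passed by Pearson's r and 0 by rho, and Fos with Junb no longer did (adjusted exact permutation p = 0.0713). The points of a pair of genes share libraries and size factors.

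The tightest relation was between Junb and Nr4a1, with r = 0.947 and rho = 0.857 over 7 pairs (exact permutation p = 0.00198 and 0.0238, adjusted 0.0240 and 0.0833). Without the 2 pairs farthest from the median of Junb, r was 0.874. Fos and Egr1 followed with r = 0.890 and rho = 0.893 (exact permutation p = 0.00714 and 0.0123, adjusted 0.0282 and 0.0646), and r was 0.511 without the 2 pairs farthest from the median of Fos, so this relation rests in part on EH 2 and EH 3. Fos and Nr4a1 had r = 0.860 and rho = 0.929 (exact permutation p = 0.0111 and 0.00675, adjusted 0.0311 and 0.0567), and r was 0.920 without the 2 farthest pairs. Egr1 and Nr4a1 had r = 0.836 and rho = 0.929 (exact permutation p = 0.0141 and 0.00675, adjusted 0.0329 and 0.0567), and r was 0.718 without the 2 farthest pairs. Arc had r = 0.867 with Fos, 0.857 with Nr4a1 and 0.856 with Junb, but its rho was lower than r, 0.714, 0.679 and 0.643. The adjusted exact permutation p of these rho was 0.195, 0.209 and 0.233. With Egr1, Arc had r = 0.712 and rho = 0.607 (adjusted exact permutation p = 0.101 and 0.241). Among Fos, Junb, Egr1, Arc and Nr4a1, r ran from 0.673 (Junb and Egr1) to 0.947 and rho from 0.607 (Egr1 and Arc) to 0.929. Without the 2 farthest pairs, r among these genes spread more widely. It was then 0.303 for Egr1 and Arc, 0.385 for Junb and Egr1, 0.587 for Junb and Arc and, at the highest, 0.995 for Fos and Junb.

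Jun and Fosb had lower correlations with these 5 genes than with each other. The 6 correlations of Jun had a median of 0.25, from 0.005 with Egr1 to 0.837 with Fosb. Fosb had r = 0.152 to 0.433 with the other 5, and its value in EH 11, based on 4 reads in miCtl, weighed on these: with Fos, r was 0.965 at the highest and 0.023 at the lowest when single pairs were left out. With the 2 farthest pairs left out as above, r of Jun with these 5 genes ran from 0.249 (Fos) to 0.932 (Junb). For Fosb it then ran from −0.072 (Fos) to 0.946 (Arc). Among the 5 themselves r then ran from 0.303 (Egr1 and Arc) to 0.995 (Fos and Junb). These ranges overlap, but the pairs left out are those farthest from the median of the gene listed first, so they differ between relations. For Fos with Fosb, for instance, EH 11 stayed in. The ranges therefore do not tell whether the 5 stood apart from Jun and Fosb. Whether the correlations of Jun and Fosb differ from those of the other genes was not tested.

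**Figure D4:**
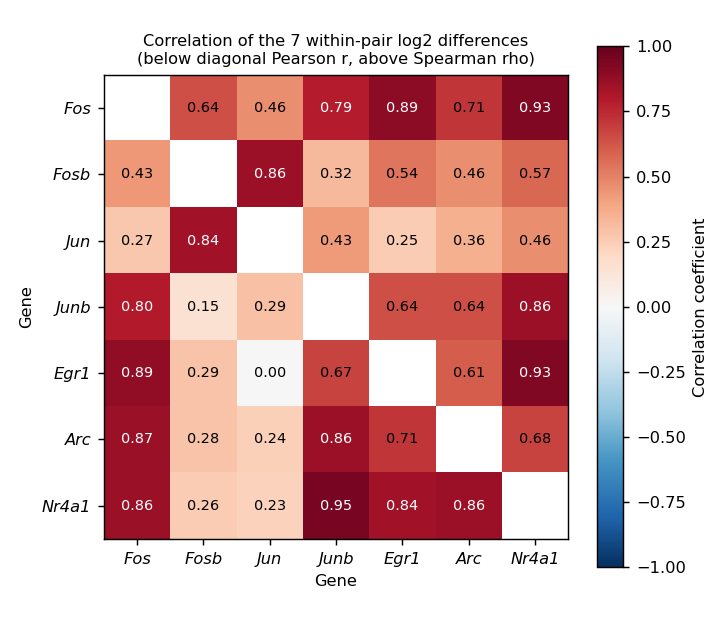
Correlation between genes (both axes) of the 7 within-pair log2 differences, with Pearson's r below the diagonal and Spearman's rho above it on a colour scale. Among Fos, Junb, Egr1, Arc and Nr4a1 r runs from 0.673 to 0.947, and the row and column of Jun are paler except with Fosb. With the farthest pairs left out, which is not shown, r among these genes runs from 0.303 to 0.995. That of Jun with them then runs from 0.249 to 0.932.

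The tested genes outside the list whose profile was most like that of the 7 were sought over the 14 libraries after removal of the group means, by Pearson's r with the mean of the 7 standardised profiles. ENSRNOG00000003300 had r = 0.963 and ENSRNOG00000010244 had r = 0.957. They had mean levels of 309 and 717 normalised reads and log2 fold changes of 0.20 and 0.02 (limma adjusted p = 0.700 and 0.989). Of the members, Fos correlated with the mean of the other 6 at 0.962 and Jun, at the other end, at 0.826. These likenesses include the low libraries of EH 11 and EH 12, were picked as the highest of all tested genes and carry no test.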

How the data were processed

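Poly(A) RNA of SON punches was sequenced in 14 libraries, 7 miCtl and 7 miRasd1, grouped by their titles. Tools named in the submitters' processing notes are STAR, featureCounts, FastQC and DESeq2, and the sources used here state no versions, genome build or strand setting. For every gene and library the authors deposited a signal, which is a read count over a size factor. They also deposited their log2 fold change with its error and test score, and their raw and adjusted p-value. Dividing each library by its step recovered reads that were whole in 100% of cases (tolerance 0.001). No libraries were treated as copies: over 91 library pairs chi-square per degree of freedom was at least 4.78.

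The 7 members and all choices were made with earlier results of these data known. The named genes were the 7 members, plus at most 2 IDs most like them, since symbols were lacking for the planned lists of other activity-regulated genes, regulators and cell type markers, which were not tested. limma 3.58.1 (trend) was fitted to log2(value + 1) for 15178 genes, those reaching 10 in 7 or more libraries. edgeR 4.0.16 and DESeq2 1.42.0 were run on recovered reads. Across genes, deviations from the group means correlated at 0.20 to 0.40 between same-numbered libraries, each above the bound of 0.1, and those with different numbers at −0.23 to 0.14. Pairing by number was set from the titles together with the choice of the 7 genes, and these correlations served as a check. Promoter sequences are RefSeq's (GRCr8), matched by symbol. Scaling, pseudocount, filter, tool and left-out libraries were varied.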

Additional observations from a re-analysis of the deposited data

Results flagged for a closer look

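Among the 23 sets of 7 values examined (each gene's level in each group, each gene's pair differences and the total reads of each group), 1 held a value far from the others. The miRasd1 library of EH 11 had 28345441 reads, against 19968058 to 23436467 in the other 6 (gap 0.586 of the group's range, past Dixon's 95% limit). Chance gives about 1 such set in 20. No level or pair difference of the 7 genes stood apart in this way, the Fosb difference in EH 11 included. Without this library the unblocked log2 fold changes were 0.71 for Egr1, 0.74 for Arc and 0.31 for Fos.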

How the results depend on the processing

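Over 43 alternatives the median of the 7 fold changes (log2) lay between 0.26 and 0.56, and each gene but Jun stayed above 0 in all 43, Fos at 0.04 to 0.39 and Fosb at 0.46 to 1.13. Jun was never past the threshold (adjusted p at least 0.723). It ran from −0.069 to 0.062 when libraries were left out, turning to 0.02, 0.06, 0.005 and 0.06 without miCtl 1, miCtl 2, miRasd1 8 and miRasd1 12. It also turned to 0.012 without EH 8 and to 0.0096 without EH 12, with the replicate block or without it. Without the block 0 of the 7 genes were called in every setting, including the 21 that left out a library or a pair. With the replicate block 1 was called in limma, also with pseudocounts of 0.5 and 5 and with TMM and total read scaling. In edgeR with the block 1 was called as well. DESeq2 with the block called 3, among 314 of 13975 genes tested, and limma without the filter called 0. With a pair left out, blocked limma called 0 to 2. It called 2 without EH 2 (160 of 15065 genes called) and without EH 8 (486 of 15060). The unblocked count over all genes, 22, was 172 in DESeq2 and ran from 0 (without EH 4; 1146 at an unadjusted p under 0.05) to 81 (without miRasd1 8) when libraries or pairs were left out. With the replicate block it was 150 in limma, 139 in edgeR, 314 in DESeq2, 148 and 159 with pseudocounts of 0.5 and 5, 155 with TMM and 150 with total read scaling. It was 0 in limma without the filter (2641 at an unadjusted p under 0.05, of 23233 genes). With a pair left out it was 0 without EH 1, 4 or 12 (2051, 1832 and 1800 at an unadjusted p under 0.05), 160, 38 and 74 without EH 2, 3 and 11, and 486 without EH 8. The causes were not tested. The blocked fits with other pseudocounts, scalings or no filter, and the adjustment of correlations over 21 relations, were chosen after the data were seen. The median correlation of pair differences was 0.44 (without EH 3) to 0.82 (without EH 11) when a pair was left out. Fosb had the fewest reads, 4 to 91 per library.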
